A study of Mus musculus with 4 samples.

Results

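Collagen genes were followed across the 4 arrays of a study of P19, a line of mouse embryonal carcinoma cells which retinoic acid causes to differentiate. The members were the 47 probe sets whose only annotated gene symbol is Col, digits, a, digits; they stand for 44 collagen genes among 22180 genes with a value. They comprised 11 fibrillar collagens, the 6 chains of type IV collagen of basement membranes, and 27 other collagens. The 4 conditions, with 1 array each, were a P19 clone after 4 days in 10 µM retinoic acid, the same clone undifferentiated with ethanol vehicle, wild-type P19 cells after 4 days in 10 µM retinoic acid, and undifferentiated wild-type cells with vehicle. The clone, called the Ctcfl line here, carried the integrates pBI-EGFP-FLAG-mCtcfl and pTA-N, a Tet-Off system kept silent by 2 µg/ml doxycycline, and had been without doxycycline for 2 days. It is described as a clone, so its differences from wild type include those of clonal origin. For wild-type cells the sample characteristics give 2 µg/ml doxycycline, whereas the growth description gives ordinary medium. Ctcfl encodes a DNA-binding relative of the insulator protein Ctcf and is normally made in male germ cells.

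Collagens are secreted proteins whose chains wind around each other into a helix, which requires a glycine at regularly spaced positions. Fibrillar collagens assemble into cross-linked fibrils, type IV chains form the sheet-like network of basement membranes, and the remaining families decorate fibrils, bridge membranes or form finer networks. In the early mouse embryo, type IV collagen is a product of the endoderm that lines the yolk sac, and fibrillar collagens appear as mesenchyme, notochord and cartilage form.

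Ctcfl had log2 signals of 9.56 with retinoic acid and 10.41 without it in the Ctcfl line, against 7.13 and 7.86 in wild-type cells in the same states. Medians of the arrays (41345 probe sets each) ranged over 6.95 to 6.96, and pairs of arrays correlated at 0.961 to 0.985. Of 10 markers of embryonal carcinoma and pluripotent cells, which include Pou5f1 and Sox2, all were at or above log2 6 on every array. With retinoic acid 6 of them fell in limma, where 2.44% of all genes fell. Genes that reached log2 6 on any array were tested, 18310 in all, and all 44 collagens were among them, with 0 below log2 6 on any array. As a guide to background, the 95th percentile of 1101 olfactory receptor genes lay between 6.83 and 6.95 on the arrays. On all 4 arrays 30 collagens were above it, 9 were above it on some arrays, and Col4a4, Col8a2, Col10a1, Col19a1 and Col28a1 were above it on none. Of the pluripotent cell markers, Zfp42, at 6.12 to 6.46, was also above it on none. No condition was replicated, and precision is limited by having 1 array for each. Over 874 genes with several probe sets, the SD among those of 1 gene was log2 0.226 to 0.331 in the 4 pairwise differences, and single arrays give no other error. In RNA from whole cultures, fewer cells of a type and less RNA per cell cannot be told apart.

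The first question is what retinoic acid did to the collagens. In limma, fitted to all 18310 genes as a retinoic acid effect plus a line effect, Col2a1, Col12a1, Col18a1, Col5a1 and Col8a1 rose, which is 5 of 44 collagens (11.4%) where 4.21% of all genes rose. None of the collagens fell in limma, where 2.44% of all genes fell; at an unadjusted p under 0.05, 5 were higher and 3 lower, where 12.5% and 11.0% of all genes were. By class, 2 of 11 fibrillar, 0 of 6 basement membrane and 3 of 27 other collagens rose. Each of the 5 genes was higher in both lines, as were 29.3% of all genes. The fit that called the 5 used these same values, so the agreement of the lines is no separate support. Unequal responses of the lines are the residual of this fit, 1 degree of freedom per gene, so a collagen with unequal responses passes less easily.

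For 3 of the 5 risen genes the sequence before an annotated start was at hand, and it is shown because these genes rose together; capitals mark the GC box GGGCGG on either strand. The windows hold the 250 bases before the start, from RefSeq on GRCm38.p6, and Col18a1 has 2 annotated starts. Col5a1 lies at chr2:27886175-27886424 on the plus strand, Col8a1 at chr16:57754738-57754987 on the minus strand, and Col18a1 at chr10:77166531-77166780 and chr10:77113706-77113955, both on the minus strand.
Col5a1: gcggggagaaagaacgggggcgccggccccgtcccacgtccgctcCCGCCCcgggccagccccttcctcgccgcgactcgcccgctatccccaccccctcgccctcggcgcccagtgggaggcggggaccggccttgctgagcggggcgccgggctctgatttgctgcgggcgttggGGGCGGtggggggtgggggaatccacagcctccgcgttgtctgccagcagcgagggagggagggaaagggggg
Col8a1: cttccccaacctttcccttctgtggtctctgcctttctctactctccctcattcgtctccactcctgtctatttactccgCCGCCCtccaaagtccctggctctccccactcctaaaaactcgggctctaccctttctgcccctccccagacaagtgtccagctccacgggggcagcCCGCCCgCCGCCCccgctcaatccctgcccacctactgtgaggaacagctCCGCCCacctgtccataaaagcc
Col18a1, outer start: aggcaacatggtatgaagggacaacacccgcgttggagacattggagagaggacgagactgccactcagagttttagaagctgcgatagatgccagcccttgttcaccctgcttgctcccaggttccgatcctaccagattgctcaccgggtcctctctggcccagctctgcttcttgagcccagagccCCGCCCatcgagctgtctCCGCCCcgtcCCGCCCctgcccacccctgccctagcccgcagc
Col18a1, inner start: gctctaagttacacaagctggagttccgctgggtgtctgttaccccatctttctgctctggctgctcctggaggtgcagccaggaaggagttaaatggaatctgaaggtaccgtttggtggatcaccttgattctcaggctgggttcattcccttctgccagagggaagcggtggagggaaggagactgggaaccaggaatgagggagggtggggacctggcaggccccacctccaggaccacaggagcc

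The Col5a1 window holds 2 GC boxes, that of Col8a1 holds 4, and the windows of Col18a1 hold 3 at the outer start and 0 at the inner one. Across the 38 windows of 35 collagen genes, 22 (57.9%) hold a GC box, against 32.7% of 32851 windows of all genes; the median GC content was 59.0% in collagen windows and 52.4% in all. The motif AGGTCA, which nuclear receptors for retinoids recognise in pairs, was searched on both strands and is in 8 of the 38 windows (21.1%) and in 14% of all windows; it is in none of the windows printed above. TATAAA, also on either strand, is in 13.2% of collagen windows and 12.4% of all windows. CCAAT is in 34.2% of collagen windows and 33.8% of all windows, among them the outer window of Col18a1. These matches describe letters in the windows and no binding.

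Among the fibrillar collagens, Col2a1, the fibril collagen of cartilage and notochord, changed most. Its log2 signals were 10.34 with retinoic acid and 8.16 without it in the Ctcfl line, and 9.49 with and 7.88 without in wild-type cells. Both retinoic acid arrays were above both undifferentiated arrays, on the same values that gave its call in limma. Col2a1 rose 3.70-fold averaged over the lines (log2 1.89 ± 0.18, SE, adjusted p = 0.00372 in limma), with differences of log2 2.17 in the Ctcfl line and 1.61 in wild-type cells. In the ranking of all 18310 genes by difference it stood 81 from the top in the Ctcfl line and 182 in wild-type cells.

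Regulators and other genes of cartilage did not all share the direction of Col2a1. Sox9, which activates Col2a1 in chondrocytes, had signals of 10.01 with and 7.98 without retinoic acid in the Ctcfl line, and 10.46 and 9.37 in the same order in wild-type cells (adjusted p = 0.0152 in limma). Sox6, its cofactor, rose by log2 2.18 (adjusted p = 0.00427), whereas Sox5 differed by log2 0.11 in the Ctcfl line and 0.15 in wild-type cells and did not pass. Acan, the large proteoglycan of cartilage, fell (adjusted p = 0.0269), to 6.49 in the Ctcfl line and 6.52 in wild-type cells, which are within the olfactory receptor range. Of the 9 cartilage markers tested, 2 rose and 1 fell, beside 4.21% and 2.44% of all genes. Their median difference was log2 0.05 in the Ctcfl line and -0.00 in wild-type cells. Their summed linear signals, which the brightest genes dominate, were 2797 with retinoic acid and 1327 without it in the Ctcfl line. In wild-type cells the sums were 3462 and 1905. In other lists, 4 of 9 neural progenitor markers rose and 1 fell, and 3 of 12 endoderm markers rose and 0 fell. Of 11 mesenchyme and fibroblast markers 5 rose and 1 fell, but Dcn and Lum were tested only through arrays where they were high. So was Emcn, the 1 of 10 endothelial markers that rose. Of 8 smooth muscle markers 1 rose, and of 7 neural crest markers 1 fell. The part of any of these genes in the Col2a1 result was not tested.

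Col5a1, a chain of type V collagen that joins type I fibrils and limits their width, had signals of 9.03 with and 8.09 without retinoic acid in the Ctcfl line, and 8.88 and 8.23 in wild-type cells. The states did not overlap, on the same values that gave its call. In limma it rose 1.73-fold, which is log2 0.79 ± 0.16 (SE), at an adjusted p of 0.0366. A second probe set of Col5a1 did not show this: it differed by log2 -0.31 in the Ctcfl line and 0.04 in wild-type cells, and with the mean of both probe sets the effect was log2 0.33 (adjusted p = 0.235). The partner chains of type V did not pass: Col5a2 differed by log2 0.15 in the Ctcfl line and 0.07 in wild-type cells, and Col5a3 by log2 -0.26 and -0.23.

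The other fibrillar collagens gave smaller differences. Type I collagen, the main fibril protein of bone, skin and tendon, is made of the chains of Col1a1 and Col1a2. Col1a1 had signals of 8.24 with and 8.16 without retinoic acid in the Ctcfl line, and 8.24 and 8.85 in wild-type cells, so that the undifferentiated wild-type array stood above the other 3. Col1a2 had 8.30 and 8.11 in the Ctcfl line and 8.55 and 8.39 in wild-type cells, which are differences of log2 0.19 and 0.16. Col11a1, a chain found in cartilage fibrils with type II collagen, differed by log2 -0.19 in the Ctcfl line and 0.40 in wild-type cells, and its partner Col11a2 by log2 -0.10 and 0.04. Col3a1, of elastic tissues and early mesenchyme, differed by log2 0.07 and 0.22 in the same order. Col24a1 and Col27a1, the most recently described fibrillar chains, lay between log2 -0.22 and -0.04 in both lines. None of these passed in limma. The fibrillar median was log2 0.07 in the Ctcfl line and 0.07 in wild-type cells, beside medians over all genes tested of -0.05 and -0.04; with quantile normalization the fibrillar median in the Ctcfl line was -0.06.

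**Figure D1:**
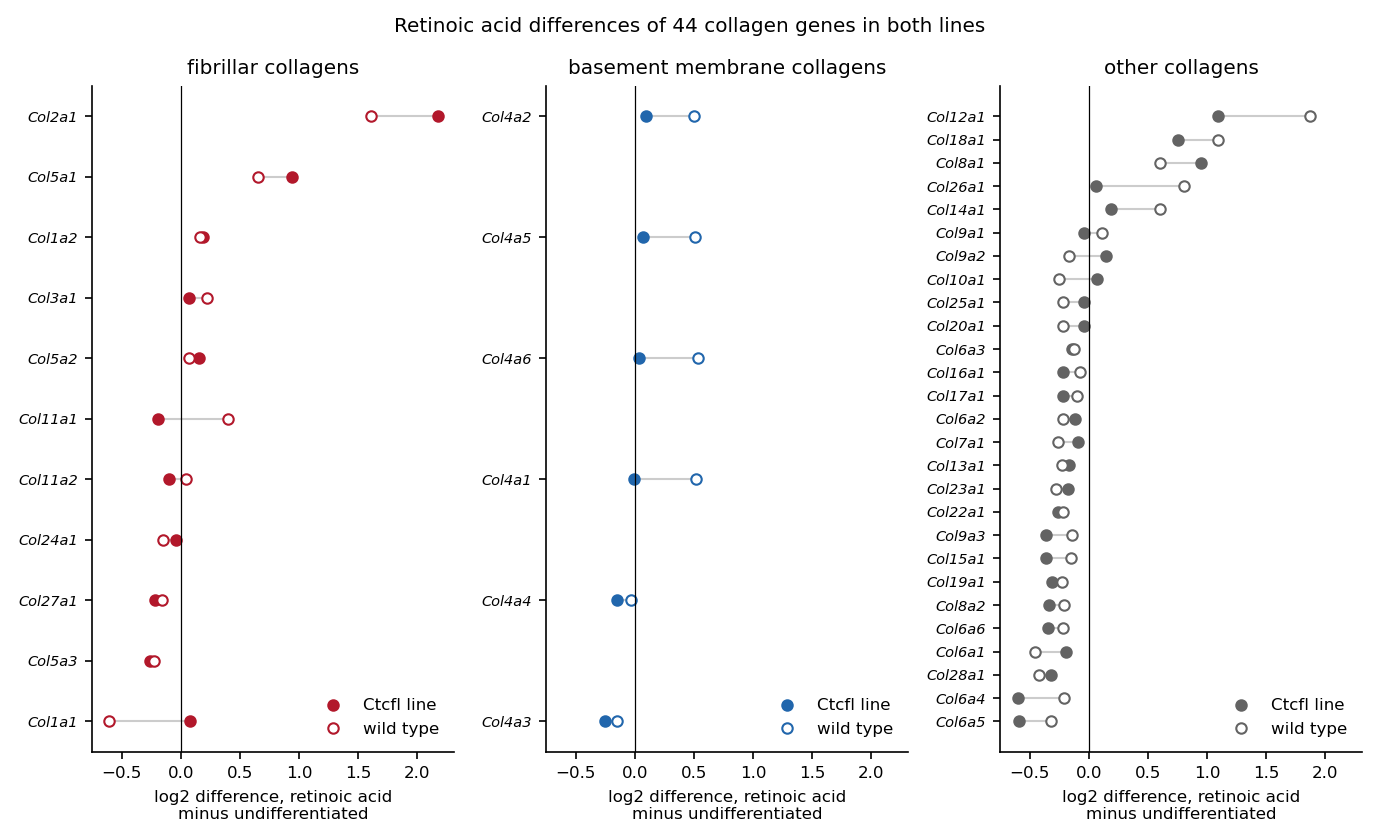
Log2 difference between retinoic acid and undifferentiated cells for each of 44 collagen genes, in panels by class; filled points are the Ctcfl line, open points wild-type cells, 1 array per condition. Col2a1 lies at 2.17 and 1.61 and Col12a1 at 1.09 and 1.87, while most others lie within 0.6 of 0.

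Outside the fibrillar class, Col12a1 changed most. It encodes a FACIT collagen, a family that sits on the surface of fibrils. Its signals were 7.35 with and 6.26 without retinoic acid in the Ctcfl line, and 8.20 and 6.33 in wild-type cells. Both undifferentiated signals were below the olfactory receptor 95th percentiles of 6.91 and 6.95 on those arrays, so the size of the fold is not exact. In limma Col12a1 rose 2.79-fold, or log2 1.48 ± 0.21 (SE), at an adjusted p of 0.013, with 2.13-fold in the Ctcfl line and 3.66-fold in wild-type cells. Col14a1, a FACIT collagen close to type XII, differed by log2 0.19 in the Ctcfl line and 0.60 in wild-type cells and did not pass (adjusted p = 0.219 in limma); it was above the olfactory receptor range on 1 array. The remaining 7 FACIT genes, which include the cartilage chains Col9a1, Col9a2 and Col9a3, lay between log2 -0.36 and 0.14 in both lines.

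Col18a1, a multiplexin of basement membranes and the precursor of endostatin, had signals of 9.79 with and 9.04 without retinoic acid in the Ctcfl line, and 9.89 and 8.80 in wild-type cells. Its states did not overlap, on the same values that gave its call. In limma it rose 1.89-fold, or log2 0.92 ± 0.16 (SE), at an adjusted p of 0.0248. The other multiplexin, Col15a1, differed by log2 -0.36 in the Ctcfl line and -0.15 in wild-type cells. Col8a1, a short-chain collagen of vessel walls and the corneal endothelium, had 8.09 and 7.14 in the Ctcfl line and 7.79 and 7.18 in wild-type cells. Its rise was 1.71-fold, or log2 0.78 ± 0.16 (SE), at an adjusted p of 0.0418 in limma, but without the filter on low signals its adjusted p was 0.0528. Its partner chain Col8a2 differed by log2 -0.34 in the Ctcfl line and -0.21 in wild-type cells, at signals within the olfactory receptor range on every array.

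**Figure D2:**
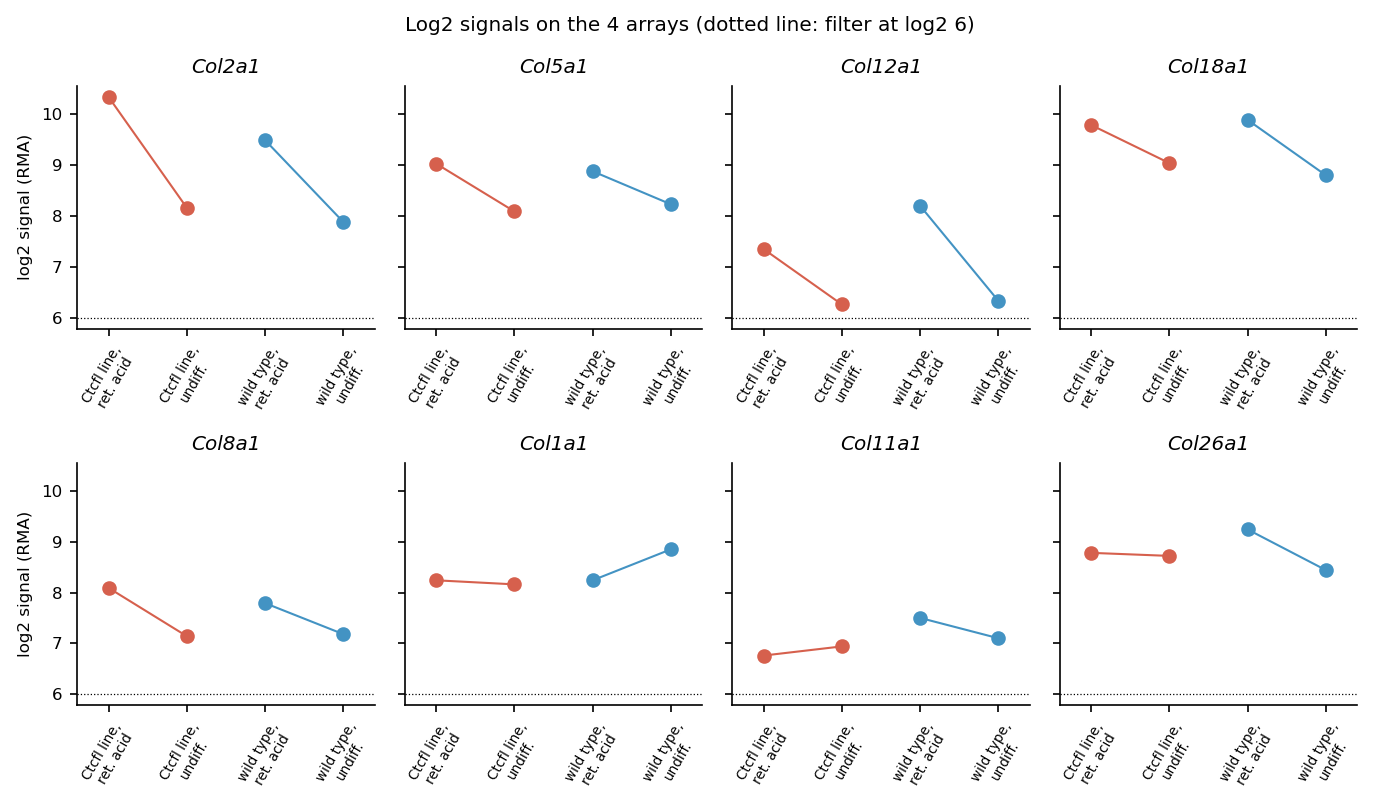
Log2 signals of 8 collagen genes on the 4 arrays, 1 array per condition; lines join the states of 1 cell line. Col2a1, Col5a1, Col12a1, Col18a1 and Col8a1, called in limma on these same values, have both retinoic acid points above both undifferentiated points. Col1a1, Col11a1 and Col26a1 do not share a direction or a size between the lines.

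Lower values were common but small. Of the 44 genes, 13 were higher with retinoic acid in both lines, 24 were lower in both and 7 had opposite signs. Of all genes tested 29.3% were higher in both, 39.7% were lower in both and 30.9% had opposite signs. All 6 genes of type VI collagen, which forms beaded microfilaments, were lower in both lines, with medians of log2 -0.27 in the Ctcfl line and -0.22 in wild-type cells. Col6a5 had signals of 6.39 with and 6.99 without retinoic acid in the Ctcfl line and 6.65 and 6.97 in wild-type cells (adjusted p = 0.146 in limma), with both retinoic acid signals within the olfactory receptor range. Col6a4 differed by log2 -0.60 and -0.21 in the same order of lines (adjusted p = 0.203). The transmembrane collagens Col13a1, Col17a1, Col23a1 and Col25a1 were also lower in both lines, with medians of log2 -0.18 and -0.22. None of these 10 genes passed. Counts of signs carry little weight here, since the median of all 44 collagens was log2 -0.09 in the Ctcfl line and -0.15 in wild-type cells, while their means were 0.02 and 0.10.

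By size alone, 2 collagens were at least 2-fold higher with retinoic acid in the Ctcfl line, Col2a1 and Col12a1, where 3.21% of all genes were. In wild-type cells 3 were, Col2a1, Col12a1 and Col18a1, where 2.58% of all genes were. In the lower direction 0 collagens were 2-fold apart in either line, where 1.50% of all genes were in the Ctcfl line and 2.62% in wild-type cells.

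The basement membrane chains had a pattern that the additive fit does not call. Type IV collagen is assembled from Col4a1 with Col4a2 in nearly all basement membranes, from Col4a3, Col4a4 and Col4a5 chiefly in the kidney glomerulus, and from Col4a5 with Col4a6 around smooth muscle and in some epithelia. Col4a1 had signals of 8.42 with and 8.44 without retinoic acid in the Ctcfl line, and 8.71 and 8.19 in wild-type cells. Col4a2 had 7.79 and 7.70 in the Ctcfl line and 8.06 and 7.56 in wild-type cells. On the X chromosome, Col4a5 had 7.98 and 7.90 in the Ctcfl line and 8.32 and 7.81 in wild-type cells. Its neighbour Col4a6 had 7.47 and 7.43 in the Ctcfl line and 8.08 and 7.55 in wild-type cells. For each of these 4 chains the wild-type array in retinoic acid was the highest, and the other 3 lay within log2 0.25 of each other.

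The retinoic acid differences of Col4a1, Col4a2, Col4a5 and Col4a6 thus lay between log2 -0.01 and 0.09 in the Ctcfl line and between 0.50 and 0.53 in wild-type cells. Col4a3 differed by log2 -0.25 in the Ctcfl line and -0.15 in wild-type cells, and Col4a4 by -0.15 and -0.03, at signals of at most 7.14. The class median was log2 0.01 in the Ctcfl line, or -0.08 with quantile normalization, and 0.51 in wild-type cells. The wild-type differences of the 4 chains exceed the SD of 0.303 between probe sets of a gene in that comparison. They are close to the SD of 0.515 over all genes in the same comparison, so they are not exceptional in size. Of all genes tested, 90.46% were at or below Col4a2 in this difference and 91.28% at or below Col4a6, with Col4a1 and Col4a5 between them. In limma the adjusted p of the 4 chains for retinoic acid lay between 0.340 and 0.438. A difference of responses rests on single arrays and was not tested; it lay between log2 -0.54 and -0.41 for the 4 chains, where the SD over all genes was 0.411.

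**Figure D3:**
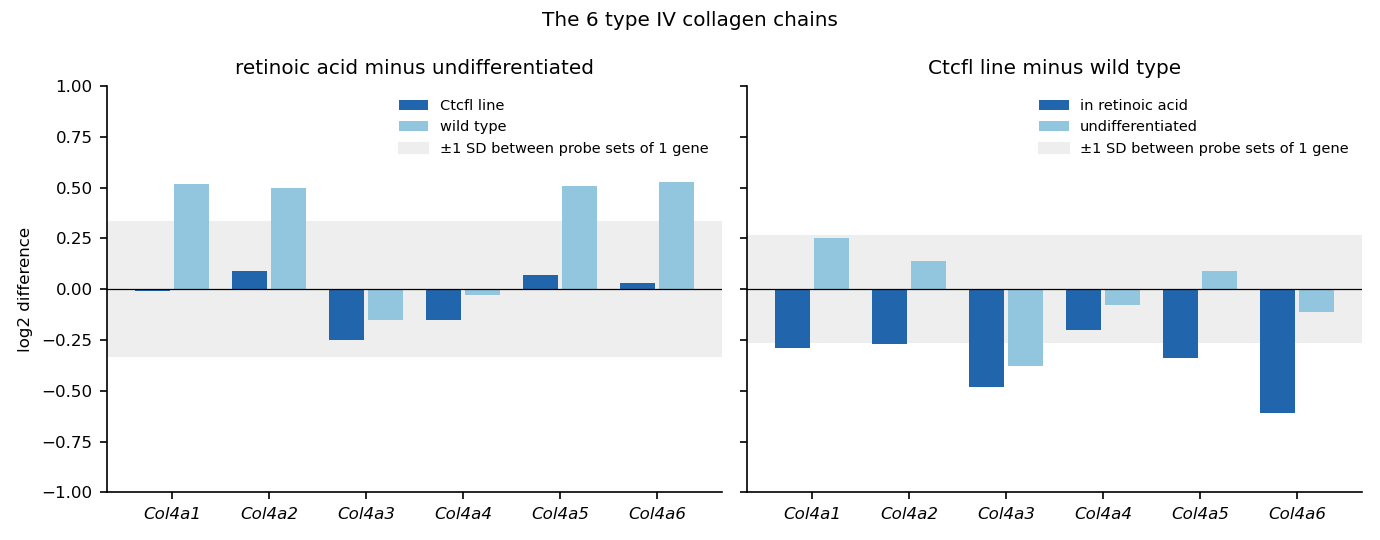
Log2 differences of the 6 type IV chains, with retinoic acid against undifferentiated cells on the left (dark bars Ctcfl line, light bars wild type) and Ctcfl line against wild type on the right (dark bars retinoic acid, light bars undifferentiated), 1 array per condition; grey bands are 1 SD between probe sets of 1 gene, the larger of the pair shown. Col4a1, Col4a2, Col4a5 and Col4a6 reach between 0.50 and 0.53 in wild-type cells and at most 0.09 in the Ctcfl line.

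Some type IV genes lie head to head. In the RefSeq table on GRCm38.p6, Col4a1, on the minus strand, and Col4a2, on the plus strand, overlap by their first 22 bases, at chr8:11312805-11312826. These bases lie after both annotated starts and hold a GC box, shown in capitals. The 250 bases before the start hold 0 GC boxes for Col4a1 and 2 for Col4a2. The stretch is given on the plus strand because the 2 genes had nearly the same retinoic acid differences, and shared control was not tested.
Col4a1 and Col4a2: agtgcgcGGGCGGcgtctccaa

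The annotated starts of Col4a5 and Col4a6 lie 1343 bases apart on opposite strands. Counted over protein-coding genes, 15 collagen genes form 8 adjacent pairs, which also include Col3a1 with Col5a2 and the chain Col6a6, Col6a5 and Col6a4. In 7 of the 8 pairs, the retinoic acid differences of the partners were within 1 SD between probe sets of each other in both lines, the head-to-head pairs among them. The exception was Col9a1 with Col19a1, at log2 0.11 and -0.23 in wild-type cells. The share among pairs that are not adjacent was not counted. The 39 collagens not called for retinoic acid lay only between log2 -0.60 and 0.19 in the Ctcfl line. The count of pairs therefore does not show an effect of position.

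The next question is how the Ctcfl line differed from wild type. No collagen changed with the line in limma (0 rose and 0 fell of 44), where 0.0273% of all genes rose and 0.0164% fell; at an unadjusted p under 0.05, Col2a1 was higher and Col4a3 lower, and 5.14% and 4.66% of all genes were. Col2a1 had the largest line effect of the collagens, log2 0.56 ± 0.18 (SE, adjusted p = 0.419 in limma). In undifferentiated cells 0 collagens were at least 2-fold apart, where 0.726% of all genes were higher and 1.09% lower in the Ctcfl line. In retinoic acid 0 were, where 0.830% were higher and 0.399% lower.

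In undifferentiated cells the collagen differences ran between log2 -0.70, for Col1a1, and 0.28, for Col26a1 and Col2a1, with a median of -0.09 beside -0.02 over all genes tested. Col1a1 was the only collagen at least log2 0.5 apart in this state, at 8.16 in the Ctcfl line and 8.85 in wild-type cells, which is 1.62-fold lower. Its partner Col1a2 differed by log2 -0.28, at 8.11 in the Ctcfl line and 8.39 in wild-type cells. The SD over the 44 collagens was 0.197, below the SD of 0.262 between probe sets of a gene in this comparison.

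In retinoic acid the differences ran between log2 -0.85, for Col12a1, and 0.84, for Col2a1, with a median of -0.15 beside -0.02 over all genes. Col12a1 was at 7.35 in the Ctcfl line and 8.20 in wild-type cells, 1.81-fold lower. Col11a1 was at 6.76 in the Ctcfl line, within the olfactory receptor range, and 7.50 in wild-type cells. Col2a1 was at 10.34 in the Ctcfl line and 9.49 in wild-type cells, 1.79-fold higher. All 6 type IV genes were lower in the Ctcfl line in this state, as were 32 of all 44 collagens and 53.9% of all genes. Their differences lay between log2 -0.61 for Col4a6 and -0.20 for Col4a4, with a median of -0.32. Col4a4 on both arrays and Col4a3 in the Ctcfl line, at 6.51, were within the olfactory receptor range. The fibrillar median was log2 -0.14 and that of other collagens -0.09. The 4 collagens at least log2 0.5 apart were Col2a1, Col4a6, Col11a1 and Col12a1.

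**Figure D4:**
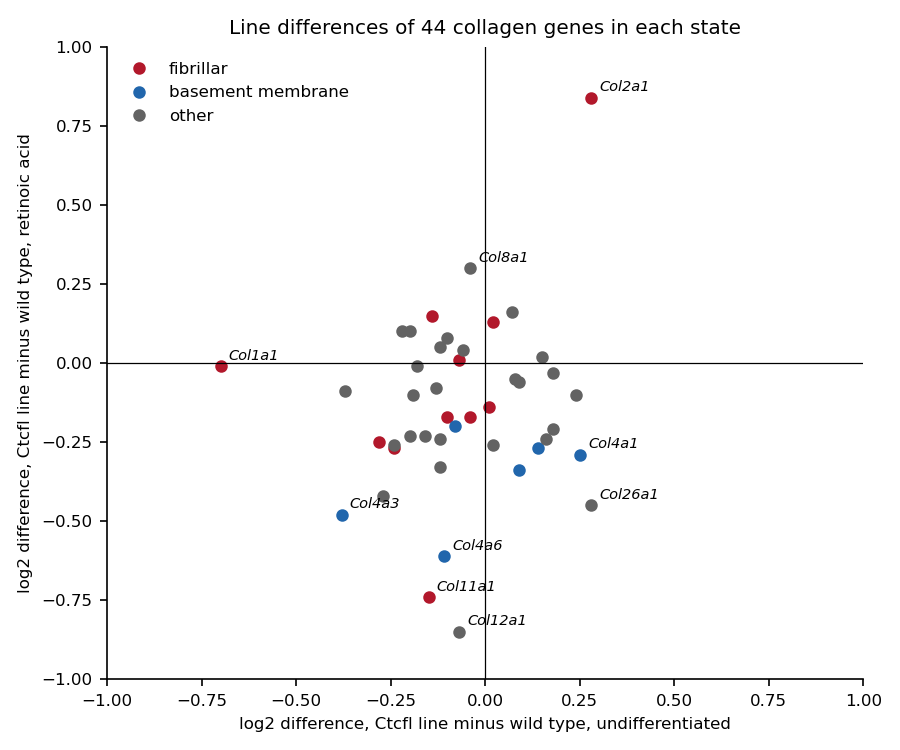
Log2 difference between the Ctcfl line and wild type for 44 collagen genes, undifferentiated on the x axis and in retinoic acid on the y axis, coloured by class, 1 array per condition. Col1a1 stands apart at -0.70 on the x axis, and Col2a1 at 0.84 and Col12a1 at -0.85 on the y axis. All 6 basement membrane genes lie below 0 on the y axis, as do 32 of all 44 collagens.

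Of the markers of other cell types, 0 of 12 for endoderm, 0 of 11 for mesenchyme and fibroblasts and 0 of 10 for endothelium passed for the line in limma. With the line 0.0273% of all genes rose and 0.0164% fell, so these counts of 0 say little about the lists. The marker values below are of single arrays. In retinoic acid 53.9% of all genes were lower in the Ctcfl line. In that state 7 of 12 endoderm markers were lower in the Ctcfl line, with a median of log2 -0.25; their summed linear signals were 7749 with retinoic acid and 5591 without in the Ctcfl line, and 8524 and 5538 in wild-type cells, and none was below log2 6. Gata6, a regulator of primitive endoderm, had 10.08 in the Ctcfl line in retinoic acid and 11.24 in wild-type cells. Lama1, a laminin chain that shares basement membranes with type IV collagen, was higher in the line, at 9.18 in the Ctcfl line and 8.74 in wild-type cells. Mesenchyme and fibroblast markers had a median of log2 -0.28, with 8 of 11 lower, and sums of 2786 and 1539 in the Ctcfl line and 4684 and 1688 in wild-type cells. Twist1, a factor of mesenchyme, had the largest difference of that list, with 7.48 in the Ctcfl line in retinoic acid and 9.56 in wild-type cells. The other 3 markers were higher in the Ctcfl line, among them Pdgfra, at 9.42 and 8.60. Without retinoic acid 7 of the 11 markers reached log2 6 on each array. On each retinoic acid array 10 of the 11 reached log2 6; the exceptions were Lum in the Ctcfl line, at 5.78, and Fap in wild-type cells, at 5.71. Endothelial markers had a median of log2 -0.22, with 8 of 10 lower and 2 higher. Cdh5, the cadherin of endothelium, had the largest difference of that list. It was at 6.47 in the Ctcfl line, within the olfactory receptor range, and 7.77 in wild-type cells. Eng went the other way, at 7.20 and 6.85. The median signal of the list was 6.79 in the Ctcfl line, below the olfactory receptor 95th percentile of 6.83 on that array. Median differences of the other lists in that state were log2 -0.15 for smooth muscle, -0.12 for cartilage, -0.09 for neural crest, -0.00 for neural progenitors and 0.09 for embryonal carcinoma cells. The part of these cell types in the collagen differences was not tested.

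Last, the responses to retinoic acid were set against each other. In 0 collagens did the responses differ by 2-fold or more, where 1.90% of all genes were higher and 0.754% lower in the Ctcfl line. It ran from log2 -0.78 for Col12a1 to 0.69 for Col1a1. Col26a1, a collagen described in testis and ovary and chosen here after its values were seen, had 8.78 with and 8.72 without retinoic acid in the Ctcfl line, and 9.24 and 8.44 in wild-type cells, a difference of responses of log2 -0.73. The class medians were log2 0.03 for fibrillar (-0.04 with quantile normalization), -0.42 for basement membrane and -0.08 for other collagens, beside -0.01 over all genes tested. These medians come from single arrays and were not tested.

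The genes that build, bind and degrade collagens were followed in 6 lists of which 74 genes were tested. With retinoic acid 10 of the 74 rose and 2 fell in limma, where 4.21% of all genes rose and 2.44% fell. The 10 include Dcn and Lum, which passed the filter only through arrays where they were high. The lists were chosen with earlier results of these data known, so the count is not a test of them. Among the enzymes that modify the chains, 2 of 14 rose and 0 fell. P4ha3, a catalytic subunit of prolyl 4-hydroxylase, had 7.86 with and 6.76 without retinoic acid in the Ctcfl line and 8.90 and 6.45 in wild-type cells, and rose (adjusted p = 0.0225 in limma), by an amount that is not exact because both undifferentiated signals were within the olfactory receptor range. P3h2, a prolyl 3-hydroxylase that acts on type IV collagen, had 9.37 and 7.91 in the Ctcfl line and 9.00 and 7.53 in wild-type cells, and rose 2.77-fold (adjusted p = 0.00404). Plod2, which hydroxylates lysines used for cross-links, differed by log2 -0.40 in the Ctcfl line and -1.26 in wild-type cells and did not pass (adjusted p = 0.0866).

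Of 12 chaperone and export genes, Fkbp14, a prolyl isomerase of the endoplasmic reticulum, was the one that rose, by log2 1.12 (adjusted p = 0.00955 in limma), and 0 fell. Serpinh1, the collagen-specific chaperone, differed by log2 0.91 in the Ctcfl line and 0.50 in wild-type cells (adjusted p = 0.0614). Creb3l1, a transcription factor that activates collagen genes in bone, differed by log2 -0.58 and -1.72 in the same order (adjusted p = 0.0576). Of 13 genes of propeptide cleavage and cross-linking, 1 rose and 1 fell. Bmp1, the proteinase that removes the C-propeptide of fibrillar collagens, had 9.82 with and 8.77 without retinoic acid in the Ctcfl line and 9.41 and 8.44 in wild-type cells (adjusted p = 0.0138). Pcolce2, which enhances that cleavage, fell by 1.06 on the log2 scale (adjusted p = 0.0118). Tll1, a proteinase related to Bmp1, differed by log2 0.87 in the Ctcfl line and 0.37 in wild-type cells and did not pass (adjusted p = 0.0978).

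Of 11 receptors, Mrc2, which takes up collagen for breakdown, rose by log2 0.73 (adjusted p = 0.0428 in limma) and 0 fell. The integrin chains Itga2 and Itgb1 differed by log2 0.41 and 0.30 in the Ctcfl line and by 0.83 and 0.63 in wild-type cells and did not pass (adjusted p = 0.088 and 0.149). Of 10 genes of degradation tested, 1 rose and 1 fell, and both are inhibitors of matrix metalloproteinases. Timp2 rose 2.10-fold (adjusted p = 0.0142), whereas Timp4 fell (adjusted p = 0.00372), to 6.23 in the Ctcfl line and 5.92 in wild-type cells with retinoic acid, against 9.74 and 8.20 without it. Its signals with retinoic acid were within the olfactory receptor range, so the size of the fall is not exact. The metalloproteinase Mmp14, which cleaves fibrillar collagen at the cell surface, differed by log2 0.11 in the Ctcfl line and 1.11 in wild-type cells and did not pass.

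Of 14 partners in fibrils and basement membranes, 4 rose and 0 fell. Dcn, a proteoglycan that binds type I fibrils, had 8.81 with and 5.90 without retinoic acid in the Ctcfl line and 10.64 and 5.94 in wild-type cells (adjusted p = 0.00401 in limma). Both undifferentiated signals of Dcn were below log2 6, so it was tested only through the arrays where it was high and the size of its rise is not known. The microfibril gene Fbn2 had 9.61 and 7.17 in the Ctcfl line and 9.53 and 7.32 in wild-type cells and rose 5.01-fold (adjusted p = 0.00107). Lum, a relative of Dcn, also passed (adjusted p = 0.0437), but 3 of its 4 signals were below log2 6 and it was tested only through the wild-type array in retinoic acid, at 7.02. Agrn, a heparan sulfate proteoglycan of basement membranes chosen here because it passed, rose 1.90-fold (adjusted p = 0.0229).

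**Figure D5:**
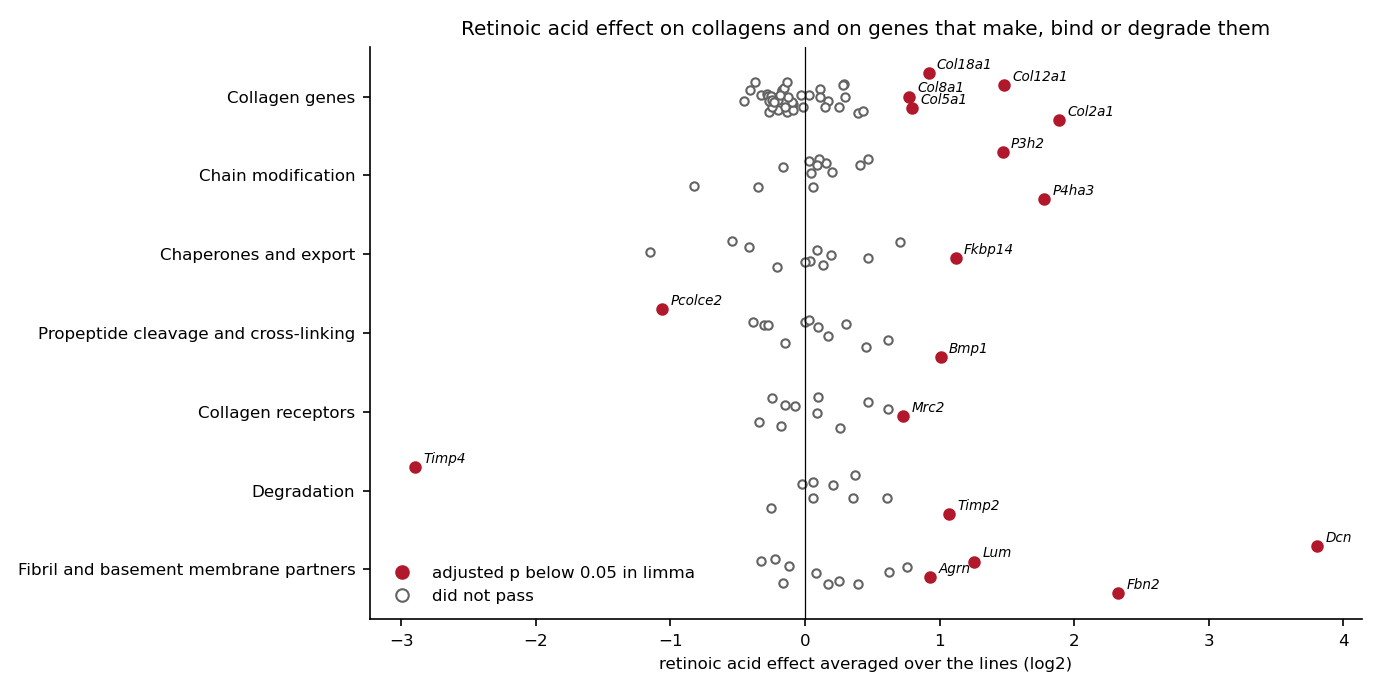
Retinoic acid effect averaged over the lines (log2, from limma on 4 arrays) for 44 collagen genes and 6 lists of genes around them, 1 point per gene with vertical spread for legibility; filled points had an adjusted p below 0.05. Filled points left of 0 are Pcolce2 and Timp4; the positions of Dcn, Lum and Timp4 rest on signals below log2 6 and are not exact.

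With the line, 1 of the 74 rose and 0 fell in limma, where 0.0273% of all genes rose and 0.0164% fell. It was Adgrg1, a receptor for type III collagen in the developing brain, which had 10.76 in the Ctcfl line and 8.27 in wild-type cells with retinoic acid, and 10.43 and 8.41 without it (log2 2.26, adjusted p = 0.0199 in limma). Its ligand gene Col3a1 differed between the lines by log2 -0.14 with retinoic acid and 0.01 without it. Adgrg6, a related receptor that binds type IV collagen, differed by log2 0.43 with retinoic acid and 0.64 without it and did not pass (adjusted p = 0.377). Crtap, which with P3h1 hydroxylates fibrillar chains, differed by log2 0.14 with retinoic acid and 1.28 without it and did not pass (adjusted p = 0.475). The inhibitor gene Timp1 was lower in both states, by log2 -1.23 and -1.02 in the same order, and did not pass (adjusted p = 0.129).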

How the data were processed

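The authors deposited RMA signals on the log2 scale, 1 value per probe set and array, per the labels. Affymetrix Expression Console and Transcriptome Analysis Console appear in the submitters' processing notes. Their versions and the genome build are not given in the sources used here, and no further normalization was applied. Symbols came from GEO's platform annotation: of 41345 probe sets 23521 had 1 symbol, 1814 several and 16010 none listed. Where a gene had several single-symbol probe sets, the brightest on average stood for it, and genes below log2 6 on every array were left out. Retinoic acid and line effects came from limma 3.58.1 (lmFit and eBayes, R 4.3.3), additive, two-sided, with Benjamini-Hochberg adjustment over 18310 genes and a threshold of 0.05; 1 residual degree of freedom joins a prior of 5.49. Other differences are of single arrays, without a test. The limma step was tested on simulated data with additive effects only, so unequal responses of the lines, the residual of the real fit, were not covered. Full values were given for collagens called in limma or at least 2-fold apart and for their partner chains, and pathway genes by the largest effects of each list; other names were chosen after their values were seen. Members and lists were chosen with earlier results of these data known. Of the listed pathway and marker genes, Plod3, Fkbp10, Adamts2, Loxl2, Itga10, Mmp15, Fbn1 and Runx2, among others, were not analysed here. A further probe set with several symbols, Col6a1 among them, was not used. Alternatives were other filters, quantile normalization, the mean of probe sets, a variance prior that follows mean expression, other fold limits, list means, and Col15a1 and Col18a1 counted with basement membrane collagens.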

Additional observations from a re-analysis of the deposited data

Results flagged for a closer look

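In 3 collagen genes the retinoic acid differences had opposite signs in the 2 lines and were apart by more than 0.411, the SD of that difference over all genes. The difference of responses, Ctcfl line minus wild type, was log2 0.69 for Col1a1, from a retinoic acid difference of 0.08 in the Ctcfl line and -0.61 in wild-type cells. For Col11a1 it was log2 -0.59, from -0.19 in the Ctcfl line and 0.40 in wild-type cells. For Col4a1 it was log2 -0.54, from -0.01 in the Ctcfl line and 0.52 in wild-type cells. In all 3 the difference in the Ctcfl line was smaller than 0.331, the SD between probe sets in that comparison, so its sign is uncertain. Col4a5 and Col4a6 had differences of responses of log2 -0.44 and -0.50 without opposite signs. Each rests on single arrays, and the difference was not tested.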

How the results depend on the processing

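No paired analysis was possible because every condition had 1 array and the labels give no replicate numbers, and leaving out an array leaves no residual for the fit. With calls limited to effects of at least 2-fold, 2 collagens rose with retinoic acid in limma in place of 5, Col2a1 and Col12a1. With a 3-fold threshold, 1 collagen in place of 2 was higher with retinoic acid in the Ctcfl line. Col5a1 lost its call with the mean of its probe sets (log2 0.33, adjusted p = 0.235) and Col8a1 without the filter (log2 0.78, adjusted p = 0.0528). Over the alternatives the adjusted p lay between 0.00142 and 0.00554 for Col2a1, 0.00639 and 0.0179 for Col12a1, 0.0204 and 0.0324 for Col18a1, 0.0339 and 0.235 for Col5a1, and 0.0308 and 0.0528 for Col8a1. The other 182 counts and medians under an alternative stayed within 1.5 times or within the largest SD between probe sets, 0.331, but medians near 0 turned sign. That tolerance is wider than most of the medians, and many counts were 0 throughout, so the 182 say little about stability. Quantile normalization gave log2 -0.06 for fibrillar and -0.08 for basement membrane collagens with retinoic acid in the Ctcfl line, and -0.04 for fibrillar collagens in the difference of responses, where the mean of probe sets gave -0.03. Means in place of medians turned the sign for all collagens with retinoic acid (0.02 in the Ctcfl line, 0.10 in wild-type cells), for other collagens in the wild-type response (0.01), and for basement membrane collagens with retinoic acid in the Ctcfl line (-0.04) and between undifferentiated lines (-0.01). Signals near those of olfactory receptor genes limit what can be seen for collagens dim on every array.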
